A study of Mus musculus with 48 samples.

Results

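The genes described here are Trp53, which encodes the transcription factor p53, and 9 of its classical targets: Cdkn1a, Mdm2, Ccng1, Bax, Bbc3, Phlda3, Sesn2, Gadd45a and Trp53inp1. They were taken by name as 10 of the 55357 genes in a count table of the mouse dentate gyrus, and all 10 were among the 21390 genes that passed the filter on low counts and were tested. Kainate, an excitotoxic glutamate agonist, or saline was injected into the hippocampus of one side, and the dorsal dentate gyrus of both sides was microdissected 3, 7 or 14 days later. The injected side is called the epileptogenic zone (EZ) and the opposite side the peri-ictal zone (PIZ). Each of the 6 combinations of injection and day held 4 wild-type C57BL/6J mice, 2 male and 2 female, and each mouse gave 1 EZ and 1 PIZ library that was not pooled, which makes 48 libraries from 24 mice. Their age is 6 to 8 weeks in the series record, whereas the methods state 8 to 10 weeks. All kainate mice had at least 1 observed convulsive seizure, whereas the saline mice had the same surgery and injection and showed none. Libraries were strand-specific and poly-A selected. They therefore report transcript levels only, and p53 is controlled to a large part at the level of the protein.

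p53 is kept low in most unstressed cells because MDM2, itself a p53 target, marks it for degradation. DNA damage, oncogene activity and other stresses loosen this hold, and p53 then switches on genes that stop the cell cycle, repair DNA or trigger apoptosis. In the hippocampus p53 is best known for its part in neuronal death after excitotoxic and ischemic injury, and Cdkn1a and Gadd45a also respond to stress signals that do not pass through p53.

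The DNA that p53 recognises was searched within 3000 bases on either side of the canonical start site of each gene, since the members share this factor and not a pattern of expression. The p53 response element was taken as 2 decamers in direct succession, each with 3 purines, C, 2 bases of A or T, G and 3 pyrimidines. Its form reads the same on both strands. Up to 2 mismatches outside the C and G positions were allowed. Such an element was present at 973 of 15518 tested protein-coding genes (6.27%), and an exact one at 18 (0.116%). Among the 10 members it was found at 3, and none of the matches was exact. They are printed from the GRCm39 genome in the direction of the gene, with the element in capitals and 10 flanking bases on each side.

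Cdkn1a, chr17:29309902-29309921 on the plus strand, 1 mismatch, starting 2836 bases upstream of the canonical start and ending 15 bases before the annotated gene: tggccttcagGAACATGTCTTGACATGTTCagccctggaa
Ccng1, chr11:40646289-40646308 on the minus strand, 1 mismatch, starting 170 bases upstream of the canonical start: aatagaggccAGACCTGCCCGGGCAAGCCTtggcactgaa
Ccng1, chr11:40645763-40645782 on the minus strand, 1 mismatch, in an intron from base 356 downstream of the start: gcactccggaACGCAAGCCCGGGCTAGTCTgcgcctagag
Bax, chr7:45115998-45116017 on the minus strand, 2 mismatches, in an exon from base 308 downstream of the start: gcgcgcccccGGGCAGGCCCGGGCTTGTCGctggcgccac

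These matches are letters only, and occupancy by p53 was not measured. No match in the other windows says only that these letters are not in them. Members with and without a match were found on both sides of the results that follow: Cdkn1a and Bax were upregulated on day 7 in the EZ and Ccng1 was below the fold limit in edgeR, while Trp53, Phlda3, Gadd45a and Trp53inp1 were upregulated with no match in the window.

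The libraries held 17762656 to 25712975 counts (median 22108562.5). The lowest count of any member in any library was 29, for Gadd45a, and the highest was 2873. Levels are given as CPM, the counts of a gene relative to the depth of its library, scaled by the TMM method. Calls of upregulation and downregulation needed a fold change above 1.5 in addition to an adjusted p below 0.01, the thresholds of the study, and refer to edgeR wherever no other tool is named. limma-voom was run with sample quality weights. The granule cell markers Prox1 and Calb1 were counted in every library, and the sum of 7 granule cell markers in the EZ was 1030 CPM in saline and 772 CPM in kainate mice on day 3, and 1040 and 682 CPM on day 7. Other marker sums also differed between kainate and saline mice. The summed level of 6 microglia markers in the EZ was 581 CPM in saline and 1370 CPM in kainate mice on day 3, and 415 and 2880 CPM on day 7. That of 6 neuronal markers was 4750 and 2760 CPM on day 3, and 5040 and 2290 CPM on day 7. On EZ day 3, CA pyramidal markers summed to 539 CPM in saline and 140 CPM in kainate mice, those of oligodendrocyte precursors to 124 and 305 CPM, of fibroblasts and pericytes to 155 and 340 CPM, and of infiltrating leukocytes to 10.4 and 30.9 CPM. Astrocyte markers on EZ day 7 summed to 5130 and 11700 CPM. In the PIZ on day 3 the microglia sum was 329 CPM in saline and 919 CPM in kainate mice, and that of 6 astrocyte markers was 4910 and 8850 CPM. The neuronal sum there was 5320 and 4070 CPM, and that of CA pyramidal markers 600 and 350 CPM. In bulk tissue, a change in the number of cells of a type and a change in RNA per cell cannot be told apart, and the part of these shifts in the results on p53 genes was not tested.

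Kainate raised a set of p53 pathway transcripts in the EZ in the first week and none was called on day 14. On day 3, 4 of 10 members were upregulated, namely Trp53, Cdkn1a, Phlda3 and Gadd45a, in a comparison in which 24.7% of all genes tested were called (16.1% upregulated). On day 7, 6 of 10 were upregulated, the same 4 and in addition Bax and Trp53inp1, while 32.5% of all genes were called (20.6% upregulated). On day 14, 0 of 10 were called in edgeR, where 2.36% of all genes were called. At an unadjusted p under 0.05 this day gave 3 members, beside 3848 of the 21390 genes tested. DESeq2 called 1 member (Gadd45a), beside 746 of all genes, and limma-voom 0. No member was called downregulated in any region or on any day.

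Gadd45a was the 1 member of 10 that edgeR called upregulated on PIZ day 3, a share near the 8.69% of all genes called. DESeq2 and limma-voom each called 2, beside 2086 and 2778 of all genes. At an unadjusted p under 0.05 there were 4 members, beside 7641 of the 21390 genes tested. On days 7 and 14 of the PIZ, 0 of 10 were called in edgeR, DESeq2 and limma-voom. On these days edgeR called 0.201% and 0.014% of all genes. At an unadjusted p under 0.05 there was 1 member on each day, beside 3104 and 1277 of all genes. Median log2 fold changes of the 10 members were 0.40, 0.72 and 0.13 in the EZ on days 3, 7 and 14, beside medians over all genes of 0.03, 0.01 and 0.00326. In the PIZ the medians of the members were 0.22, 0.11 and 0.06, beside 0.02, 0.00886 and 0.00365 over all genes.

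**Figure D1:**
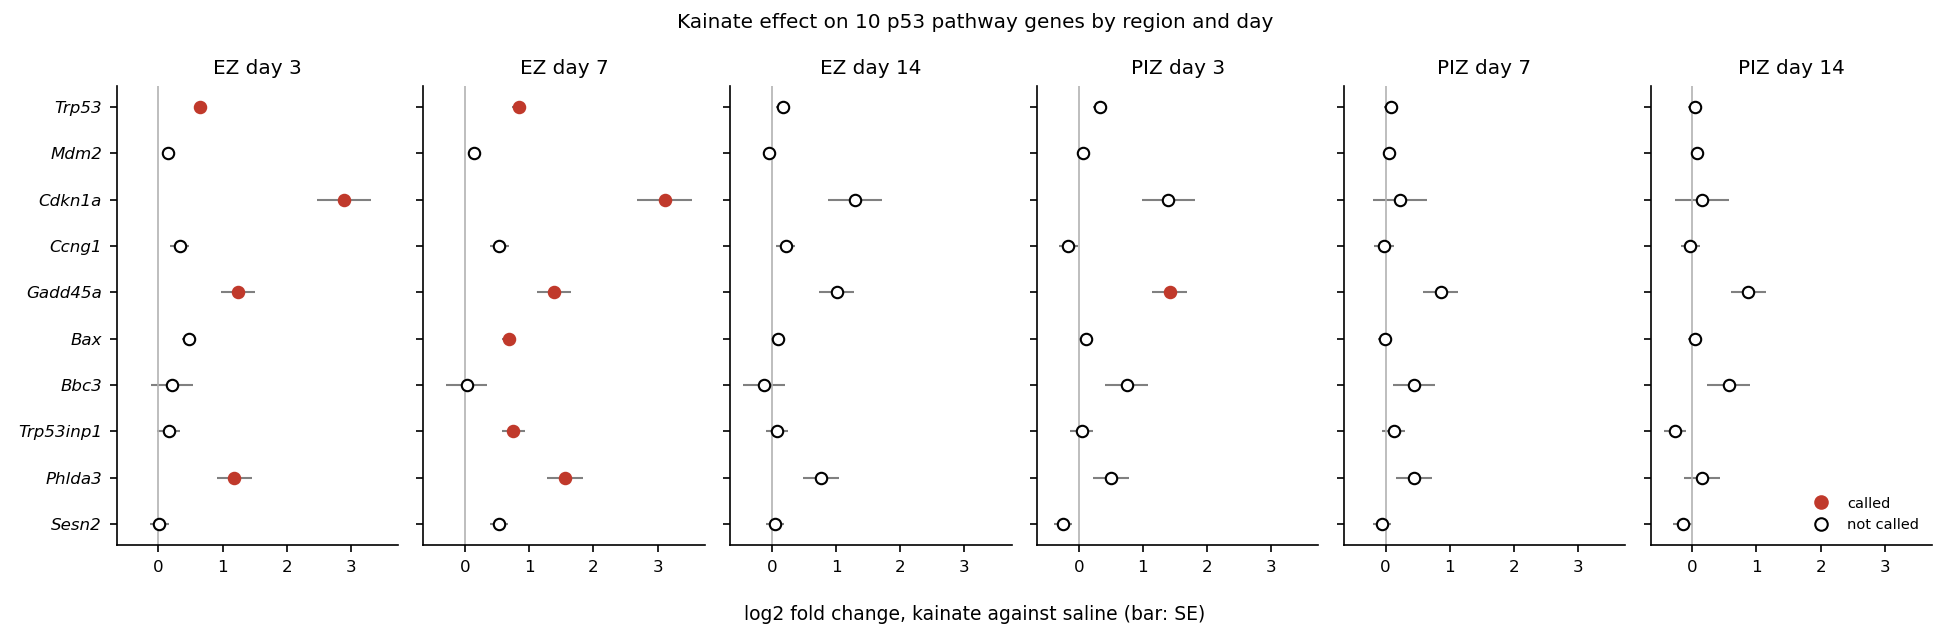
Log2 fold change of kainate against saline for the 10 p53 pathway genes (rows) in each region and day (panels), with bars for the standard error and filled points for genes called at an adjusted p below 0.01 with more than 1.5-fold change. Filled points are seen in the EZ on days 3 and 7 (4 and 6 genes), and in the PIZ only for Gadd45a on day 3. Cdkn1a lies farthest to the right in the EZ on days 3 and 7.

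Trp53 itself was upregulated. In the EZ on day 3 its level was 34.1, 41.5, 38.5 and 34.2 CPM in the 4 kainate mice and 23.3, 25.9, 21.9 and 23.2 CPM in the 4 saline mice. All kainate libraries lay above all saline libraries, and the log2 difference was 0.65 (standard error [SE] 0.11, adjusted p = 5.91e-06). On day 7 the kainate mice had 48.5, 31.9, 37.7 and 46.3 CPM and the saline mice 21.9, 24.8, 22.5 and 23.1 CPM. The groups were again apart, and Trp53 was 1.78-fold higher (log2 difference 0.83, SE 0.11, adjusted p = 5.97e-08). On day 14 the groups overlapped (0.17, SE 0.11, adjusted p = 0.402). In the PIZ on day 3 the kainate mice had 27.6, 26.3, 24.8 and 30.01 CPM and the saline mice 21.3, 22.6, 23.1 and 19.8 CPM. These groups did not overlap either, but the difference of 0.32 (SE 0.11, adjusted p = 0.023) was not called. Trp53 exons share 419 bases with genes of the opposite strand, among them Wrap53. The counting is stated to use strand, but the strand setting stated for the alignment is one for single-end reads, and how far reads of such antisense overlaps were kept apart, here and for Cdkn1a and Gadd45a, was not tested.

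Mdm2, the ubiquitin ligase that restrains p53 and closes its feedback loop, was not called in any comparison. Its level lay between 39.8 and 54.8 CPM over all 24 EZ libraries. The log2 difference was 0.14 (SE 0.07, adjusted p = 0.0848) on day 3 and 0.14 (SE 0.07, adjusted p = 0.0724) on day 7 in the EZ. On EZ day 14 and in the PIZ it lay between -0.04 and 0.07. The kainate and saline mice overlapped in all 6 comparisons. The counts are of whole genes, so transcripts from the p53-responsive internal promoter of Mdm2 were not separated from the others.

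Among the targets that arrest the cell cycle, Cdkn1a, which encodes the cyclin-dependent kinase inhibitor p21, had the largest fold change of the 10 members in the EZ on days 3 and 7. On day 3 the EZ held 45.2, 58.1, 47.2 and 18.9 CPM in kainate mice and 4.19, 7.20, 5.76 and 5.55 CPM in saline mice. The lowest kainate mouse thus lay above the highest saline mouse, and the log2 fold change was 2.90 (SE 0.42, adjusted p = 1.29e-06), or 7.46-fold. On day 7 the values were 52.2, 14.4, 34.9 and 52.4 CPM against 5.46, 3.78, 4.33 and 4.29 CPM. The kainate mice varied widely among themselves and still lay above every saline mouse (log2 fold change 3.11, SE 0.43, adjusted p = 1.98e-07), or 8.63-fold.

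On day 14, Cdkn1a in the EZ was 3.48, 24.8, 4.61 and 6.60 CPM in kainate mice and 4.11, 4.90, 3.74 and 3.44 CPM in saline mice. A single mouse, number 27, carried the difference of 1.29 (SE 0.42, adjusted p = 0.0617), and without it the difference was 0.28 (adjusted p = 1). In the PIZ on day 3, Cdkn1a was 16.9, 11.3, 7.82 and 12.8 CPM in kainate mice and 4.13, 4.91, 4.33 and 5.19 CPM in saline mice. The groups were apart, and the difference of 1.40 (SE 0.41, adjusted p = 0.012) fell just short of the call in edgeR, whereas DESeq2 (adjusted p = 0.00493) and limma-voom (adjusted p = 1.29e-04) called it. On days 7 and 14 in the PIZ the groups overlapped. The antisense genes Dino and Gm64878 share 753 exon bases with Cdkn1a.

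Gadd45a, whose product binds PCNA and p21 and takes part in growth arrest and DNA repair, was the only member that edgeR called in both regions, while DESeq2 and limma-voom also called Cdkn1a in both. In the EZ on day 3 it was 6.85, 8.11, 6.67 and 6.69 CPM in kainate mice and 2.65, 3.42, 2.58 and 3.36 CPM in saline mice (log2 fold change 1.24, SE 0.27, adjusted p = 2.38e-04). In the PIZ on day 3 it was 7.17, 5.54, 4.39 and 6.63 CPM against 1.95, 1.94, 2.47 and 2.51 CPM (1.42, SE 0.27, adjusted p = 2.34e-04). Kainate and saline mice were thus apart on both sides, and the difference of the effects between the sides, -0.18 (SE 0.38, adjusted p = 0.829), was not called. In the EZ on day 7 it was 10.2, 4.95, 5.50 and 9.17 CPM against 3.11, 2.39, 2.79 and 3.15 CPM (1.39, SE 0.27, adjusted p = 4.03e-05).

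Gadd45a was the member that stayed apart longest. In all 6 comparisons every kainate library lay above every saline library of the same region and day, including the 3 that were not called. On day 14 the EZ held 3.83, 8.52, 3.60 and 3.97 CPM against 2.57, 2.80, 2.41 and 2.13 CPM (1.01, SE 0.27, adjusted p = 0.0196). Without mouse 27 this difference was 0.62 (adjusted p = 0.7). In the PIZ the differences were 0.86 (SE 0.28, adjusted p = 0.108) on day 7 and 0.87 (SE 0.27, adjusted p = 0.361) on day 14, and neither was called. Without mouse 27 the latter was 0.52 (adjusted p = 0.839). Over all genes tested, every kainate library lay above every saline library for 4.58% on EZ day 14, 7.63% on PIZ day 7 and 3.7% on PIZ day 14. The antisense gene E230016M11Rik shares 990 exon bases with Gadd45a.

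Ccng1, which encodes cyclin G1, a cofactor of the phosphatase that acts on MDM2, was not called in edgeR or DESeq2. In the EZ on day 7 it was 110.4, 78.0, 74.2 and 110.3 CPM in kainate mice and 62.1, 61.2, 64.3 and 71.0 CPM in saline mice. No kainate mouse lay within the saline range, but the log2 difference of 0.53 (SE 0.15, adjusted p = 0.00263) was below the fold limit. In limma-voom it was 0.65 (adjusted p = 3.6e-05) and was called, as it was in edgeR with scaling by library size only or without kainate mouse 23 or 26. On day 3 it was 77.1, 109.9, 94.8 and 61.6 CPM against 63.2, 70.0, 74.3 and 65.9 CPM, and the groups overlapped (0.33, SE 0.15, adjusted p = 0.0638). In the PIZ the difference was -0.17, -0.02 and -0.03 on days 3, 7 and 14.

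**Figure D2:**
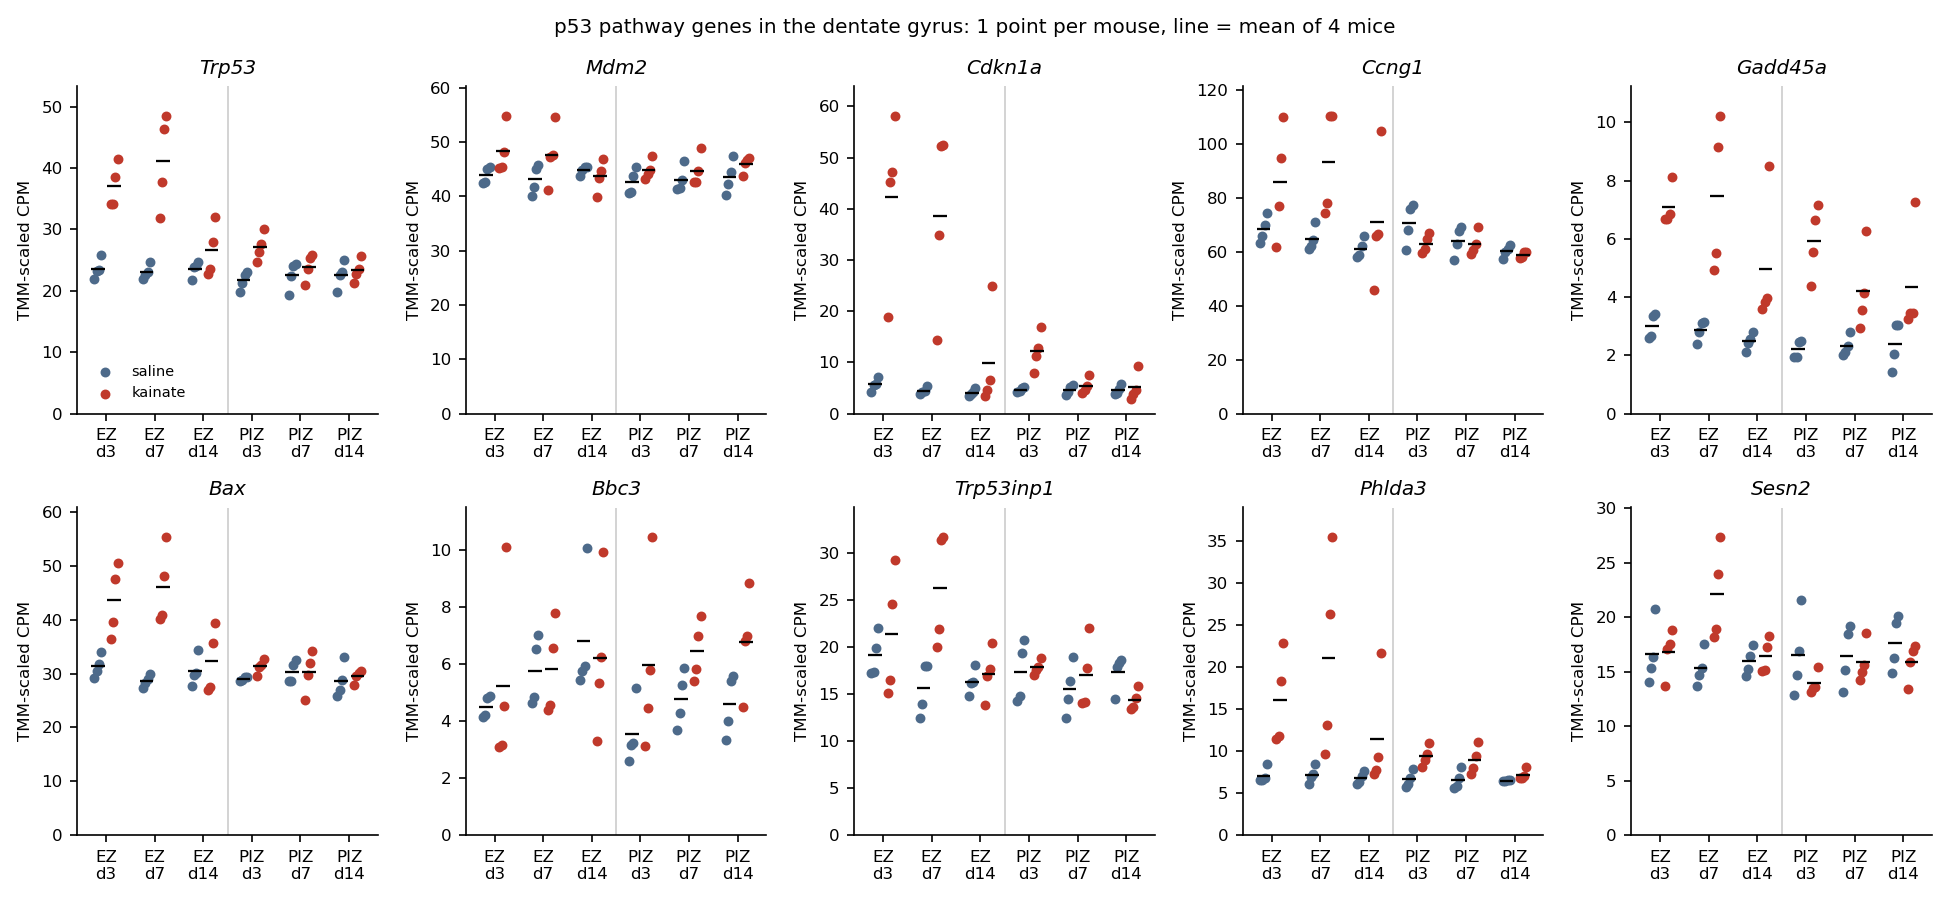
TMM-scaled CPM of the 10 p53 pathway genes (panels, each axis from 0) in kainate (red) and saline (blue) mice, by region and day, with 1 point per mouse and a line at the mean of 4 mice. Cdkn1a in the EZ lies between 14.4 and 58.1 CPM in kainate mice on days 3 and 7 and at 7.20 CPM or below in saline mice, and on day 14 only mouse 27 (24.8 CPM) is high. Mdm2 and Bbc3 overlap in every pair of groups.

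Among the apoptotic targets, Bax, the effector that permeabilises the outer mitochondrial membrane, was 55.4, 40.9, 40.2 and 48.2 CPM in kainate and 27.3, 30, 28.9 and 28.3 CPM in saline mice in the EZ on day 7. It was upregulated 1.61-fold with no overlap (log2 fold change 0.69, SE 0.11, adjusted p = 1.65e-06). On day 3 it was 39.7, 50.7, 47.7 and 36.5 CPM against 30.6, 31.8, 29.1 and 34.1 CPM, again without overlap, and the difference of 0.47 (SE 0.11, adjusted p = 4.15e-04) was below the fold limit. With scaling by library size only it was 0.60 (adjusted p = 4.2e-05) and was called. In the PIZ, Bax differed by 0.11, -0.01 and 0.04 on days 3, 7 and 14. Bax shares 192 exon bases on its own strand with the gene model Gm45808, so reads there could have gone to either.

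Trp53inp1, a stress-induced p53 cofactor that also takes part in autophagy, was called on day 7 in the EZ. Its level was then 31.7, 21.9, 20 and 31.4 CPM in kainate and 12.45, 18.02, 13.98 and 17.99 CPM in saline mice (log2 fold change 0.75, SE 0.18, adjusted p = 4.45e-04), and the groups did not overlap. With only these groups fitted, the adjusted p was 0.0156 and the call was lost. On day 3 the kainate mice, at 15.1, 29.2, 24.6 and 16.5 CPM, spanned the saline mice, at 17.3, 19.9, 22.0 and 17.2 CPM. The test of the difference between these days gave 0.59 (SE 0.25, adjusted p = 0.314), so the effect was not shown to differ between day 3 and day 7.

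Bbc3, which encodes the BH3-only protein PUMA, was not called anywhere, and its groups overlapped in all 6 comparisons. In the EZ on day 3 it was 3.10, 3.14, 4.53 and 10.1 CPM in kainate and 4.86, 4.14, 4.80 and 4.19 CPM in saline mice. The log2 difference was 0.21 (SE 0.33, adjusted p = 0.627), and without mouse 44, the highest, it was -0.33 (adjusted p = 0.361). The same mouse was highest in the PIZ, where kainate mice had 4.46, 3.11, 5.77 and 10.4 CPM and saline mice 2.60, 3.16, 5.16 and 3.23 CPM (0.75, SE 0.33, adjusted p = 0.099). Without it the PIZ difference was 0.32 (adjusted p = 0.483). This mouse also had the lowest EZ level of Cdkn1a in its group.

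Phlda3, a p53-induced inhibitor of Akt signalling, was upregulated in the EZ on both early days. On day 3 it was 11.4, 22.8, 18.3 and 11.8 CPM in kainate and 8.39, 6.48, 6.59 and 6.82 CPM in saline mice (log2 fold change 1.19, SE 0.28, adjusted p = 5.72e-04). On day 7 it was 35.4, 9.59, 13.02 and 26.2 CPM against 8.47, 6.08, 7.28 and 6.87 CPM (1.56, SE 0.28, adjusted p = 1.29e-05), or 2.94-fold. No group overlapped on these days, although the kainate mice spread widely. The difference was 1.18 with only the EZ libraries fitted on day 3 (adjusted p = 0.0128) and 1.55 with only the groups compared on day 7 (adjusted p = 0.0127), which ended each call. In the PIZ it was 0.50 on day 3 (SE 0.28, adjusted p = 0.188), with kainate mice at 8.08 to 10.9 CPM and saline mice at 5.77 to 7.84 CPM. On day 14 mouse 27 had 21.6 CPM and the other kainate mice 9.22, 7.19 and 7.77 CPM, against 6.97, 6.34, 6.05 and 7.65 CPM in saline mice (0.76, SE 0.28, adjusted p = 0.111). Without this mouse the difference was 0.26 (adjusted p = 1).

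Sesn2, a stress-induced inhibitor of the growth regulator mTORC1, was not called in edgeR or DESeq2. In the EZ on day 7 it was 23.99, 18.9, 18.2 and 27.3 CPM in kainate and 15.3, 13.7, 14.7 and 17.6 CPM in saline mice, apart but below the fold limit (log2 difference 0.53, SE 0.14, adjusted p = 0.00194). Sesn2 was called in limma-voom (0.68, adjusted p = 3.03e-04), and in edgeR with scaling by library size only or without kainate mouse 23 or 26 or saline mouse 89. On day 3 the groups overlapped, with a difference of 0.02 (SE 0.14, adjusted p = 0.94). In the PIZ the difference was -0.25, -0.06 and -0.15 on days 3, 7 and 14.

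Mouse 27 stood apart on day 14 for several members at once. In the EZ it had the highest value of its group for Trp53 (32.0 CPM), Cdkn1a, Ccng1 (104.8 CPM), Bax (39.4 CPM), Phlda3, Gadd45a, Sesn2 (18.3 CPM) and Trp53inp1 (20.4 CPM), and the lowest for Mdm2 (39.8 CPM) and Bbc3 (3.31 CPM). In its PIZ, Cdkn1a (9.36 CPM), Gadd45a (7.26 CPM) and Trp53inp1 (15.9 CPM) were also the highest of the group, whereas Trp53 (21.3 CPM), Mdm2 (43.8 CPM), Bbc3 (4.49 CPM) and Sesn2 (13.4 CPM) were the lowest. Its summed microglia markers in the EZ were 2430 CPM, beside 444, 501 and 620 CPM in the other kainate mice of that day, and its neuronal markers were 2860 CPM beside 3710, 4800 and 4870 CPM. On day 7 in the EZ, mice 21 and 35 had the highest Trp53, Cdkn1a, Ccng1, Bax, Phlda3, Sesn2, Gadd45a and Trp53inp1. For Mdm2 and Bbc3, mouse 26 lay between these mice. Mice 21 and 35 also had the highest microglia sums (4810 and 3430 CPM, beside 1360 and 1910 CPM) and the lowest neuronal sums (1330 and 1500 CPM, beside 3340 and 3000 CPM). Whether the marker levels had a part in the p53 results was not tested.

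The difference between the zones was tested directly as the kainate effect in the EZ minus that in the PIZ. On day 7 it was called for 3 of 10 members, against 9.89% of all genes. These were Cdkn1a (2.89 on the log2 scale, SE 0.59, adjusted p = 0.00201), Trp53 (0.75, SE 0.15, adjusted p = 0.00191) and Bax (0.69, SE 0.15, adjusted p = 0.0025). Ccng1, Phlda3, Sesn2 and Trp53inp1 had differences of 0.55, 1.11, 0.59 and 0.62 with adjusted p = 0.0459, 0.0323, 0.0303 and 0.0584, and were not called. The 3 calls rested on few mice. Without kainate mouse 21, 0 members were called and the count over all genes fell to 1, without kainate mouse 35 only Trp53 was called, and without saline mouse 89 only Trp53. On day 3, 0 of 10 members were called in edgeR and DESeq2, against 0.0655% of all genes in edgeR. limma-voom called 2 (Cdkn1a and Ccng1), beside 1879 genes over all 21390 tested. At an unadjusted p under 0.05 there were 4 members, beside 3828 of the 21390 genes. On day 14, 0 of 10 were called by all 3 tools, and 0% of all genes were called in edgeR. At an unadjusted p under 0.05 there were 0 members, beside 1562 of all genes.

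Changes of the effect over time were tested in the same way. From day 3 to day 7 in the EZ, 0 of 10 members were called by edgeR, DESeq2 and limma-voom, against 0.145% of all genes in edgeR. At an unadjusted p under 0.05 there were 2 members, beside 2565 of all genes. From day 7 to day 14 in the EZ, 0 of 10 were called in edgeR against 0.271% of all genes, although all 10 differences were negative. Over all genes, 7081 of the 21390 tested had an unadjusted p under 0.05, and so had 6 members. Among these 6 were Trp53 (-0.66, SE 0.15, adjusted p = 0.0121), Bax (-0.60, SE 0.15, adjusted p = 0.0163) and Cdkn1a (-1.81, SE 0.58, adjusted p = 0.0343). DESeq2 called 1 of the members, beside 898 of all genes, and limma-voom 6, beside 6301 of all genes. Without mouse 27 edgeR called 4 (Trp53, Cdkn1a, Bax and Phlda3), without mouse 23 it called 3 (Trp53, Cdkn1a and Bax), and without mouse 26 it called 2 (Trp53 and Bax). From day 3 to day 7 in the PIZ, 0 of 10 were called by any of the 3 tools, against 0.0234% of all genes in edgeR. At an unadjusted p under 0.05 there were 0 members, beside 2270 of all genes. The region and time differences share kainate and saline libraries with the comparisons above and are not separate evidence.

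The injection itself was examined in saline mice, as EZ against PIZ of the same animals. On days 3, 7 and 14, 0 of 10 members were called by edgeR, DESeq2 or limma-voom, against 0.0281%, 0% and 0% of all genes in edgeR. At an unadjusted p under 0.05 there were 0 members, beside 1319, 325 and 517 of all genes. Gadd45a on day 3 was the only member whose saline libraries did not overlap, at 2.65, 3.42, 2.58 and 3.36 CPM in the EZ and 1.95, 1.94, 2.47 and 2.51 CPM in the PIZ (0.43, SE 0.28, adjusted p = 0.901). In the same libraries the microglia sum was 581 CPM in the EZ and 329 CPM in the PIZ, and the astrocyte sum 7160 and 4910 CPM. These sums did not overlap between the sides, and the other marker sums did. Their part in the Gadd45a values was not tested.

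Levels of different genes were compared only after division by the length of the canonical transcript. Over the 24 saline libraries, the mean level per kilobase was highest for Bax (30.5 CPM per kb, range 26.5 to 35.2), then Ccng1 (18.5, range 16.25 to 22.1), Mdm2 (14.05, range 12.95 to 15.3) and Trp53 (12.35, range 10.5 to 14.0). The ranges of Bax and Ccng1 met no other, and those of Mdm2 and Trp53 overlapped. Sesn2 followed at 4.71 (range 3.69 to 6.19), then Phlda3 (2.95, range 2.44 to 3.69), Trp53inp1 (2.69, range 1.99 to 3.51), Cdkn1a (2.43, range 1.79 to 3.75), Gadd45a (2.06, range 1.15 to 2.77) and Bbc3 (1.86 CPM per kb, range 0.969 to 3.74). The ranges of these last 5 genes overlapped one another, and those of Cdkn1a and Bbc3 reached into that of Sesn2. The members called on day 3 thus came from both parts of this order.

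Further genes of the pathway were followed as lists beside the members. Of 19 tested regulators of p53, 4 were upregulated and 0 downregulated in the EZ on day 3, against 16.1% and 8.61% of all genes. They were the kinases Aurka (2.35, SE 0.26, adjusted p = 2.11e-08), Chek1 (1.55, SE 0.28, adjusted p = 2.88e-05) and Chek2 (1.52, SE 0.29, adjusted p = 4.95e-05), and Cdkn2a, which encodes the MDM2 inhibitor ARF and the kinase inhibitor p16. Cdkn2a had only 1 to 3 counts in the saline libraries of that comparison and 7 to 26 counts in the kainate libraries. The median over the list was -0.08, beside 0.03 over all genes. In the PIZ on day 3, where 7.12% of all genes were upregulated, 2 of 19 were, Aurka (1.69, SE 0.27, adjusted p = 2.13e-05) and Cdkn2a, which had 2 to 9 counts against 0 to 1 in saline, and leaving out single mice left 1 to 2. These shares are close to those of all genes.

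Of 11 other arrest targets, 7 were upregulated and 0 downregulated on EZ day 3, 5 and 0 on EZ day 7, and 4 and 0 on PIZ day 3. The upregulated shares of all genes were 16.1%, 20.6% and 7.12%. Leaving out single mice gave 6 to 7 on EZ day 3, and 3 to 5 on PIZ day 3 (3 without saline mouse 18, 5 without saline mouse 37). The leading ones on EZ day 3 were Gtse1 (2.97, SE 0.39, adjusted p = 2.96e-07), E2f7 (2.86, SE 0.41, adjusted p = 1.14e-06), Ckap2 (2.87, SE 0.44, adjusted p = 2.67e-06) and Btg2 (1.52, SE 0.26, adjusted p = 1.45e-05). Gtse1 and Ckap2 encode proteins of dividing cells, E2f7 encodes a repressor of cell-cycle genes and Btg2 is an antiproliferative early-response gene. In the PIZ on day 3 they were Rprm (2.93, SE 0.49, adjusted p = 4.65e-05), Ckap2 (2.76), Gtse1 (2.30) and E2f7 (1.97). Raw counts of Rprm in the PIZ were 739 to 3101 in kainate and 351 to 455 in saline mice on day 7. On day 14 they were 1198 to 1977 and 291 to 489, whereas those of Ckap2, Gtse1 and E2f7 overlapped.

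Of 16 tested apoptosis targets, 9 were upregulated and 0 downregulated on EZ day 3, 8 and 1 on EZ day 7, and 3 and 0 on PIZ day 3. Over all genes, 16.1%, 20.6% and 7.12% were upregulated and 8.61%, 11.9% and 1.57% downregulated. Leaving out single mice gave 6 to 10 upregulated on EZ day 3 (6 without kainate mouse 38, 10 without kainate mouse 30). On PIZ day 3 it left 1 to 2 (1 without kainate mouse 30 or 42 or saline mouse 18, 29 or 37). The leading ones on EZ day 3 were Shisa5 (1.69, SE 0.21, adjusted p = 1.72e-07), the death receptors Tnfrsf10b (2.77, SE 0.39, adjusted p = 9.37e-07) and Eda2r (2.56, SE 0.43, adjusted p = 9.48e-06), and Pidd1 (1.41, SE 0.29, adjusted p = 1.35e-04), a scaffold of caspase-2. On PIZ day 3 they were Shisa5 (1.06, SE 0.21, adjusted p = 3.58e-04), the death receptor Fas (1.44, SE 0.40, adjusted p = 0.00819) and the caspase Casp6 (0.74, SE 0.21, adjusted p = 0.00851). Bcl2l14, also on this list, had at most 6 counts in a library and was not tested.

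Of 26 targets in DNA repair, metabolism and other functions, 8 were upregulated and 2 downregulated on EZ day 3, and 12 and 4 on EZ day 7, against 16.1% and 8.61%, and 20.6% and 11.9%, of all genes. The downregulated shares are thus near those of all genes. Without kainate mouse 38 or 42, 1 was downregulated on EZ day 3. Among the upregulated were the antioxidant enzyme Gpx1 (1.65, SE 0.22, adjusted p = 3.09e-07), the peptide transporter Tap1 (2.44, SE 0.36, adjusted p = 1.72e-06) and the matrix protein Thbs1 (5.18, SE 0.86, adjusted p = 8.44e-06). None of these 3 is a DNA repair gene. Downregulated were Zfp365 (-1.10, SE 0.17, adjusted p = 3.63e-06) and the glutaminase Gls2 (-0.73, SE 0.20, adjusted p = 0.00221). On PIZ day 3, 4 of 26 were upregulated against 7.12% of all genes, among them Gpx1 (1.13), Tap1 (1.87) and Abhd4 (0.73, SE 0.15, adjusted p = 4.56e-04).

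Close relatives of the members were counted as well. Of 16 tested paralogs, 6 were upregulated and 1 downregulated on EZ day 3, against 16.1% and 8.61% of all genes, and 8 and 0 on EZ day 7, against 20.6% and 11.9%. With single mice left out, 0 to 2 were downregulated on EZ day 3 (0 without kainate mouse 30 or saline mouse 18, 2 without kainate mouse 44 or saline mouse 41) and 0 to 1 on EZ day 7 (1 without kainate mouse 23). On EZ day 3, 9 were not called. Gadd45g (1.86, SE 0.27, adjusted p = 1.29e-06) and Gadd45b (2.08, SE 0.31, adjusted p = 1.87e-06) were upregulated alongside Gadd45a, as were Bak1 (1.11, SE 0.20, adjusted p = 3.32e-05), the partner of Bax at the mitochondrion, and Phlda1 (1.12, SE 0.24, adjusted p = 1.86e-04), a relative of Phlda3. Trp73, a relative of Trp53, was downregulated (-0.81, SE 0.22, adjusted p = 0.00265). On PIZ day 3, 14 of 16 were not called and 2 were upregulated against 7.12% of all genes (1 to 2 with single mice left out), Bmf (1.53, SE 0.33, adjusted p = 8.53e-04) and Gadd45g (0.96, SE 0.27, adjusted p = 0.00833).

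The products of a further list oppose Bax and Bbc3. Of these 7 antiapoptotic relatives of Bcl2, 5 were upregulated and 1 downregulated on EZ days 3 and 7, and 3 and 0 on EZ day 14 and on PIZ day 3. Upregulated shares of all genes were 16.1% and 20.6% on EZ days 3 and 7, 2.32% on EZ day 14 and 7.12% on PIZ day 3, and downregulated shares were 8.61% and 11.9% on EZ days 3 and 7. On EZ day 7, 0 were downregulated without kainate mouse 21 or 35 or saline mouse 89. Leaving out single mice left 0 to 3 on PIZ day 3 (0 without saline mouse 18 or 41, 1 without kainate mouse 42 or saline mouse 29). On EZ day 3 Mcl1 was upregulated (1.05, SE 0.18, adjusted p = 1.74e-05) and Bcl2l2 downregulated (-0.71, SE 0.08, adjusted p = 2.11e-08). Bcl2a1a (3.36), Bcl2a1b (2.96) and Bcl2a1d (3.11) were upregulated too, and they were the 3 called on EZ day 14 (2.83, 3.16 and 3.10). On that day mouse 27 held 179 of the 241 Bcl2a1a counts of the kainate mice, 430 of 580 for Bcl2a1b and 126 of 165 for Bcl2a1d. Without it 0 of 7 were called and the differences were 1.35, 1.68 and 1.49 (adjusted p = 0.764, 0.283 and 0.692). The count was also 0 without saline mouse 31 or 39 and 1 without saline mouse 24 or 28. These near-identical copies are typical of myeloid cells and share reads, so their values are uncertain one by one.

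A last list held genes that p21 and the DREAM repressor complex are known to hold down. All 16 of these cell-cycle genes were upregulated on EZ days 3 and 7, against 16.1% and 20.6% of all genes, with median log2 fold changes of 2.87 and 3.25, at the times when Cdkn1a was at its highest. On EZ day 3 they included Plk1 (2.64, SE 0.31, adjusted p = 5.68e-08), Foxm1 (2.56, SE 0.34, adjusted p = 3.17e-07), Birc5 (2.92, SE 0.39, adjusted p = 3.45e-07) and Ccna2 (2.85, SE 0.38, adjusted p = 4.11e-07). On PIZ day 3, 13 of 16 were upregulated against 7.12% of all genes, led by Cdk1 (4.33, SE 0.60, adjusted p = 3.47e-06), Top2a (3.36), Mki67 (3.39) and Ccna2 (2.59). On EZ day 14, 0 of 16 were called against 2.32% of all genes upregulated, and the median was 0.93. Without mouse 36, 1 was called (Cdk1, 2.34, adjusted p = 0.0071). Without mouse 27, which held 148 of 208 kainate counts of Cdk1 and 321 of 562 of Mki67, the median was 0.41. The libraries hold many cell types, and whether the same cells held p21 and these transcripts cannot be told from them.

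**Figure D3:**
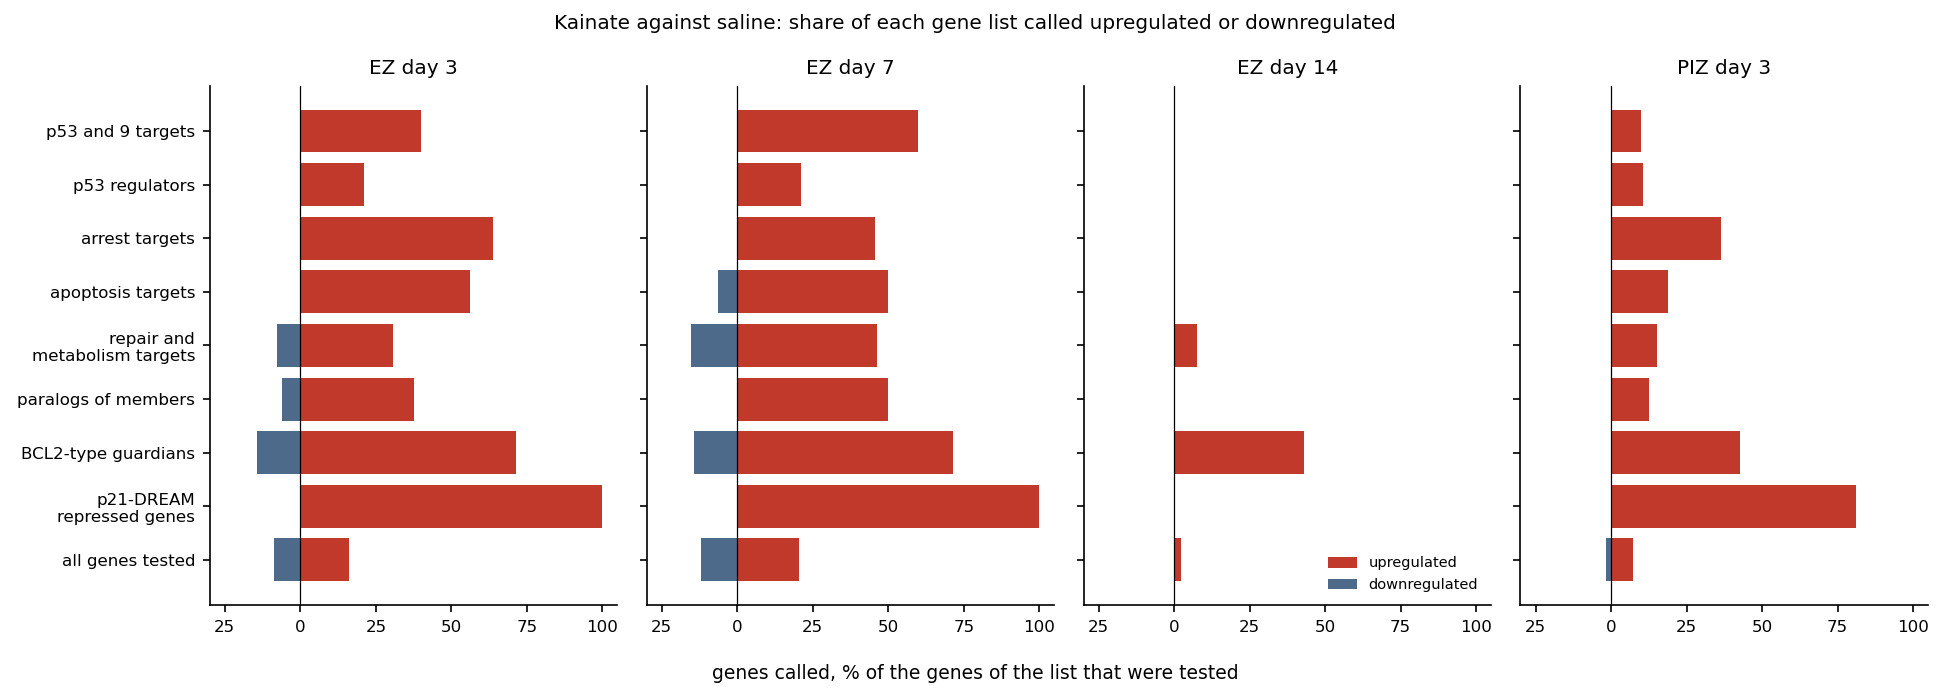
Share of each gene list called upregulated (red, to the right) or downregulated (blue, to the left) by kainate, in percent of the tested genes of the list, in the EZ on 3 days and in the PIZ on day 3. All genes tested are the lowest bar (16.1% and 8.61% on EZ day 3). The list of p21-DREAM repressed genes stands at 16 of 16 on EZ days 3 and 7, and 0 of 10 members are called on EZ day 14.

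Over the 12 group means of log2 CPM, the genes outside the pathway whose pattern was most like that of Cdkn1a included the translocon subunit Sec61a1 (Pearson's r = 0.9964), the lipid droplet protein Plin2 (0.9962), the membrane protein Ms4a6b (0.9956) and the ribosomal protein Rpl41 (0.9956). Among the members, Trp53 had r = 0.976 and rank 498 of the 21390 genes tested. Next among them were Bax (0.956, rank 1412), Phlda3 (0.951, rank 1644), Ccng1 (0.868, rank 4285) and Gadd45a (0.864, rank 4358). Last came Trp53inp1 (0.839, rank 4832), Mdm2 (0.822, rank 5093), Sesn2 (0.484, rank 8149) and Bbc3 (-0.04, rank 10866). The 12 means come from the same libraries, with the same differences in marker sums, for every gene, and these values describe the patterns only.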

How the data were processed

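RNA of 48 dorsal dentate gyrus libraries was measured by stranded paired-end RNA-seq. The authors trimmed reads with fastp 0.20.1, aligned them to GRCm39 with HISAT2 2.2.1 and counted them per Gencode M28 gene with featureCounts (Subread 1.6.4), by strand and with multimapping reads at their primary alignment. They deposited these raw counts without normalization. A read in a gene with close copies could thus be counted at the wrong copy. Names, positions and lengths came from Gencode M39 of the same assembly, to which 98.9% of identifiers matched.

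Genes were filtered with filterByExpr, scaled by TMM and tested with the quasi-likelihood test of edgeR 4.0.16 (R 4.3.3) with 1 mean for each of 12 groups of 4 mice. P-values were adjusted by Benjamini-Hochberg over all genes of a comparison, and the SE was the absolute log2 fold change divided by the square root of F. The 12 groups shared 1 estimate of spread, and the fit was tested on simulated data. Group and mouse number came from the sample labels. EZ and PIZ libraries of the same mouse are paired by that number (residual correlation -0.0536 to 0.376, over 0.1 in 20 of 24 pairs), and mouse entered as a replicate block in an alternative (edgeR for comparisons of the zones, limma-voom with an estimated correlation within a zone). Alternatives were DESeq2 1.42.0, limma-voom 3.58.1, other scalings, filters, thresholds and sets of libraries, the block and each mouse left out. Members, gene lists and the rule for named genes (all members, the 4 smallest p-values per list and direction on day 3, the 5 patterns most like Cdkn1a) were chosen with earlier results of these data known. Some genes that this rule names are not reported here.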

Additional observations from a re-analysis of the deposited data

Results flagged for a closer look

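In 5 of 120 combinations of member and group, the highest or lowest of the 4 mice stood apart by a gap over 0.829 of the group's range. Chance alone gives about 1 such case in 20 groups. Values in this paragraph are log2 CPM. Gadd45a in mouse 27 was high on day 14 in both the EZ (3.11) and the PIZ (2.88) of kainate mice, and Gadd45a in mouse 38 was high in the EZ on day 3 (3.04). In saline mice of day 14, mouse 39 was high for Bbc3 in the EZ (3.34) and low for Trp53inp1 in the PIZ (3.87).

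The kainate effect differed between EZ and PIZ on day 7, by the test of the difference in edgeR, for Trp53 (0.748 on the log2 scale), Cdkn1a (2.89) and Bax (0.694), with each effect higher in the EZ.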

How the results depend on the processing

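The counts of members called in the EZ on day 3 (3 to 5) and day 7 (4 to 8) stayed within 1.5 times of those reported under all alternatives, with each mouse left out included. The calls of upregulated members kept their sign throughout, and 0 of 11 reversed. On PIZ day 3, where 1 member was called, DESeq2, limma-voom, scaling by library size only, the fit of only the groups compared and that of only the libraries of the region each gave 2 (Gadd45a and Cdkn1a), and an adjusted p under 0.05 with no fold limit gave 3. Over all genes, these called 2086, 2778, 2043, 2356, 2610 and 4914 in that order, beside 1858 in the main fit. On EZ day 14, where 0 were called, DESeq2 and the looser threshold gave 1, and leaving out single mice gave 0 to 1 (1 without kainate mouse 14 or 36, Gadd45a). Over all genes, DESeq2 called 746 on that day and the looser threshold 1098, beside 504 in the main fit. For the EZ minus PIZ effect, limma-voom gave 2 on day 3 and 6 on day 7, the looser threshold 6 on day 7, and single mice left out 0 to 4 on day 7 (0 without kainate mouse 21, 1 without kainate mouse 35 or saline mouse 89). Over all genes, limma-voom called 1879 on day 3, beside 14 in the main fit. On day 7 limma-voom called 5126 genes and the looser threshold 5827, beside 2115 in the main fit. For the EZ effect from day 7 to day 14, DESeq2 gave 1, limma-voom 6, the looser threshold 3, and single mice left out 0 to 4 (4 without kainate mouse 27, 3 without 23, 2 without 26). Over all genes, DESeq2 called 898, limma-voom 6301 and the looser threshold 3194 here, beside 58 in the main fit. With mouse as a replicate block, the counts were 4 and 6 in the EZ on days 3 and 7, 1 in the PIZ on day 3 and 3 for the EZ minus PIZ effect on day 7, and 0 in the other comparisons, so the paired fit changed no count from edgeR. Within a zone the block was fitted in limma-voom without quality weights, and that fit without the block, added after the data were seen, gave the same counts as the blocked fit. Without weights or block, limma-voom gave 0 and 3 for the EZ minus PIZ effect on days 3 and 7 and 0 for the EZ effect from day 7 to day 14. The fit of only the groups compared lost Phlda3 (adjusted p = 0.0127) and Trp53inp1 (0.0156) on EZ day 7, and that of only the EZ libraries lost Phlda3 on EZ day 3 (0.0128), with differences of 1.55, 0.747 and 1.18. Scaling by library size only moved the median of all genes to 0.159 on EZ day 3 and 0.111 on PIZ day 3. The cause of these changes was not tested.

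Signs turned only among values that were not called, in 18 of 49 of them, all within 0.212 of 0 on the log2 scale. On EZ day 3, Sesn2 was -0.00378 in DESeq2, -0.00395 with RLE size factors, -0.00336 with no filter and -0.0233 with only the groups compared, and Bbc3 was -0.00521 in limma-voom. On EZ day 7, Bbc3 was -0.0855 in limma-voom and -0.0103 with no filter. On EZ day 14 in limma-voom, Bax was -0.0922 and Sesn2 -0.0385. On PIZ day 7, limma-voom gave 0.0158 for Ccng1 and 0.0424 for Bax, library size only gave 0.0487 for Ccng1, 0.0664 for Bax and 0.0173 for Sesn2, and no filter gave 0.0184 for Bax. On PIZ day 14, Cdkn1a was -0.121 in limma-voom.

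Leaving out single mice gave these ranges. On EZ day 3, Bbc3 ranged from -0.329 to 0.398, Sesn2 from -0.0573 to 0.142 and Trp53inp1 from -0.0271 to 0.294. On EZ day 7, Bbc3 ranged from -0.147 to 0.132. On EZ day 14, Mdm2 ranged from -0.0745 to 0.00326, Ccng1 from -0.0406 to 0.373, Bax from -0.0162 to 0.173, Bbc3 from -0.454 to 0.125, Sesn2 from -0.00827 to 0.0907 and Trp53inp1 from -0.0183 to 0.169. On PIZ day 3, Trp53inp1 ranged from -0.0371 to 0.144. On PIZ day 7, Ccng1 ranged from -0.0762 to 0.0133, Bax from -0.0687 to 0.0755, Sesn2 from -0.151 to 0.0271 and Trp53inp1 from -0.0265 to 0.236. On PIZ day 14, Trp53 ranged from -0.0162 to 0.0944, Cdkn1a from -0.304 to 0.357 and Bax from -0.00259 to 0.118. The lowest count of a member in any library was 29 (Gadd45a), and an uncalled member may still differ.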
